A study of Mus musculus with 2 samples.

Results

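The genes described here encode 3 proton-sensing G protein-coupled receptors, Gpr4, Gpr65 and Gpr132, which were picked by symbol through their Ensembl mouse identifiers. They are 3 of the 55573 genes listed in the deposited tables. RNA-seq was performed on mesenteric arteries, the resistance vessels that feed the intestine, from wild type C57BL/6 mice that were 10 weeks old. The control library came from arteries in 5 mM K+ and the depolarized library from arteries in 60 mM K+, a solution in which KCl takes the place of part of the NaCl. The labels give 60 min for both, and both solutions contained tetrodotoxin, which silences nerves. Each library pooled tissue from 2 mice, and there was 1 library per condition, and without replicates no p-value could be computed for the conditions. By the description of the arterial bed in the study's methods, the control tissue was the distal side of ligated arteries, taken before the rest was perfused with 60 mM K+. By that description the whole bed had stood without perfusion, and the control was taken from it before perfusion resumed. The study's results instead describe perfusion with either solution for 60 min. Which account applies to the sequenced arteries is not stated. Where the methods description applies, segment, time in solution and perfusion cannot be told apart from K+.

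Proton-sensing receptors become active when the fluid outside the cell turns acidic, because protons bind to histidine and acidic residues on the outer face of the receptor. GPR4 is the vascular member of the family and is known from endothelial cells, where acid signals through Gs, adenylyl cyclase and cAMP and raises adhesion molecules and chemokines. GPR65, also called TDAG8, couples to the same Gs pathway in lymphocytes and macrophages. GPR132 is a leukocyte receptor that responds to oxidized fatty acids as well and is a weaker proton sensor.

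Gpr4 was transcribed in both libraries and its scaled level was 4.67-fold higher in 60 mM K+, whereas Gpr65 and Gpr132 lay at or near the limit of detection in both. The libraries held 10480918 and 11289598 reads on genes. Reads were scaled by one factor per library, the trimmed mean of M-values (TMM), and CPM denotes scaled reads per 1000000. Log2(fold-change) is the log2 of the depolarized over the control value. Intervals are exact 95% intervals (Poisson for a CPM value, Clopper-Pearson for a fold change) and cover counting error only.

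Gpr4 lies on the plus strand of chromosome 7 at chr7:19797887-19809525 in the mm9 build. GENCODE lists 1 transcript with 2 exons, and the coding sequence of 1095 bases, which is 365 codons, sits in a single exon. No other gene of this annotation overlaps it, although the annotation behind the counts is not given in the sources used here. The nearest one is Opa3, a gene of a mitochondrial protein, which begins 4158 bases downstream on the same strand. Opa3 had 866 and 1270 reads, a log2(fold-change) of 0.65 (0.53 to 0.78), well below that of Gpr4. Gpr65 (chr12:99506845-99514834, plus strand, 2 exons) and Gpr132 (chr12:114089087-114099127, minus strand, 3 exons) share chromosome 12 and have coding sequences of 1011 and 1146 bases. Neither has another annotated gene within 5 kb.

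The study asks whether depolarization reaches transcription through CREB, which binds the cAMP response element (CRE), so the 250 bases before the start of the receptor genes are of interest. Those of Gpr4 and Gpr132 are shown 5′ to 3′ on the strand of the gene. Capitals mark GGGCGG, the GC box bound by Sp1 factors, in Gpr4 and TGACG, a core part of the CRE, in Gpr132.
Gpr4, chr7:19797637-19797886, plus strand: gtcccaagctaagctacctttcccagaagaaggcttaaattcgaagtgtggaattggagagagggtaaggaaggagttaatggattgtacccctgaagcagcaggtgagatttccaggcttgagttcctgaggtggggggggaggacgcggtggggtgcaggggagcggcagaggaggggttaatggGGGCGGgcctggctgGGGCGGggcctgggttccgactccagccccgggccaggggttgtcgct
Gpr132, chr12:114099128-114099377, minus strand: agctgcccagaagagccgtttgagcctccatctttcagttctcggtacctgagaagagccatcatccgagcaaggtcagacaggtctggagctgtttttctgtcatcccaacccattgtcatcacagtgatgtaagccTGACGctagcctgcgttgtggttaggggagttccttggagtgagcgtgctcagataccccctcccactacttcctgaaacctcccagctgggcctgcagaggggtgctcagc

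The Gpr4 window held GGGCGG at 2 places, which begin 63 and 48 bases before the start, and 32.7% of 32851 promoter windows of this length hold it on either strand. The full CRE, TGACGTCA, was in none of the 3 receptor windows and is in 1.55% of all windows. The shorter TGACG, which the full CRE contains, occurred in Gpr132 only, 112 bases before the start, and 17.8% of all windows hold it. The AP-1 motif TGANTCA (6.75% of all windows) and the kappa B consensus (3.90%) were found in none of the 3. The window of Gpr4 was rich in G and C at 61.2%, compared with a median of 52.4% over all windows, while Gpr65 had 36.8% and Gpr132 55.6%. These matches describe letters in the window and not binding. The study looked up its most up-regulated genes, which include Gpr4, in a database of predicted CREB targets with classic or nonclassic CREs. Its text does not say whether Gpr4 was a predicted target. Exact matches in these short windows are a narrower search and cannot show that a gene lacks a CRE.

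Gpr4 had 104 reads in 5 mM K+, compared with 453 in 60 mM K+. The control level was 9.23 CPM (7.54 to 11.2) and the depolarized level was 43.1 CPM (39.3 to 47.3). The intervals are far apart, so that counting error is small beside this difference, but the spread between animals is not known. Log2(fold-change) was 2.22 (1.91 to 2.55), which is 4.67-fold (3.77 to 5.84). On the FPKM scale, which divides by gene length and by total reads, its level was 3.44 in 5 mM K+ and 13.9 in 60 mM K+. Among genes with a value above 0, 47.5% had a lower FPKM than Gpr4 in 5 mM K+ and 68.8% had one in 60 mM K+.

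**Figure D1:**
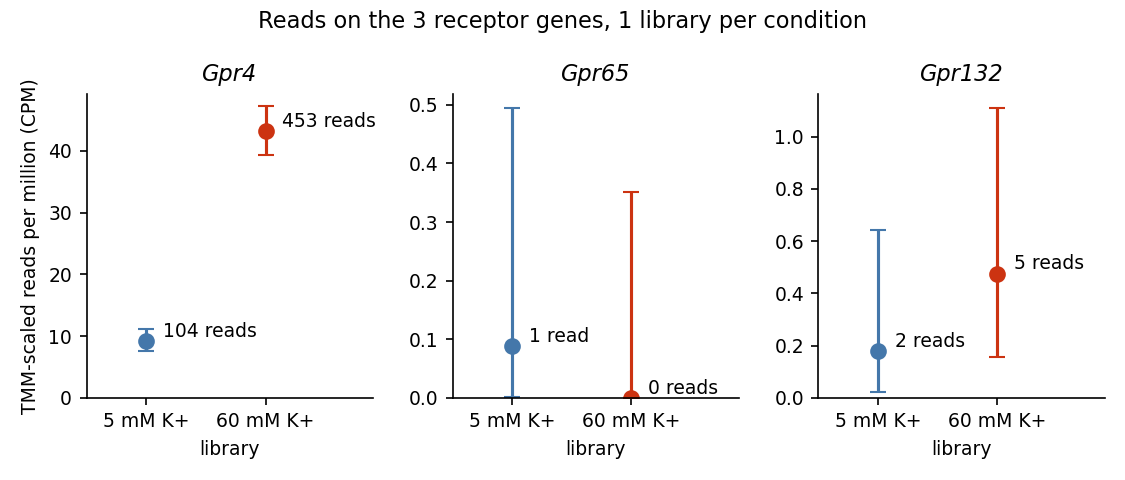
TMM-scaled CPM (vertical axes, a separate scale for each gene) in the 5 mM K+ and 60 mM K+ libraries for Gpr4, Gpr65 and Gpr132, with exact 95% Poisson intervals as bars and the raw reads beside the points. Gpr4 lies at 9.23 and 43.1 CPM, and the other receptors stay below 0.5 CPM with intervals that overlap.

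Gpr65, the lymphocyte and macrophage receptor, had 1 read in 5 mM K+ and none (0) in 60 mM K+. By a floor of 3 reads, a count of 0 allows a level of up to 0.286 CPM in the depolarized library, and the upper end of its exact interval is 0.351 CPM. No fold change is given because both counts were at or below 3 reads. Gpr132, the leukocyte receptor, had 2 reads in the control and 5 in the depolarized arteries. This is 0.178 CPM (0.0215 to 0.641) and 0.476 CPM (0.155 to 1.11), a ratio of 2.68 whose interval, from 0.439 to 28.2, includes no change. A difference in Gpr65 or Gpr132 was not detectable at this depth. By FPKM, the levels of Gpr65 were 0.0461 and 0 and those of Gpr132 were 0.135 and 0.312, so that Gpr4 was the most abundant of the 3 receptors in both libraries. Of all reads on the 3 genes, Gpr4 took 97.2% (92.0 to 99.4) in 5 mM K+ and 98.9% (97.5 to 99.6) in 60 mM K+.

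Over both libraries, 14829 genes reached a sum of at least 10 reads, and of these 5.54% had a log2(fold-change) above 1 and 5.86% had one below -1. Of the genes past either limit, 48.6% were higher in 60 mM K+, and 31.9% were with total-count scaling, which lowers every log2(fold-change) by 0.21. Gpr4 is the only one of the 3 receptors in this set, and its change, known from earlier results of these data, is given as a description. By log2(fold-change) it took rank 147 of these 14829 genes. Many genes above it had few reads: among the 10738 genes with at least 100 reads it took rank 40, and 3.06% of that set were above 1. Among the 4732 genes with 279 to 1114 reads, which is 0.5 to 2 times the reads of Gpr4, it took rank 10. The genes nearest to Gpr4 by level in both libraries, measured as the distance in log2 CPM over the 2 libraries, were Hmga1, a chromatin architectural protein (119 and 419 reads), Nod2, an intracellular sensor of bacterial peptides (100 and 373 reads), and Tmem22 (127 and 421 reads). Their intervals in log2(fold-change) were 1.62 to 2.22, 1.68 to 2.33 and 1.54 to 2.13. Closeness to Gpr4 in fold change follows from how they were chosen.

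**Figure D2:**
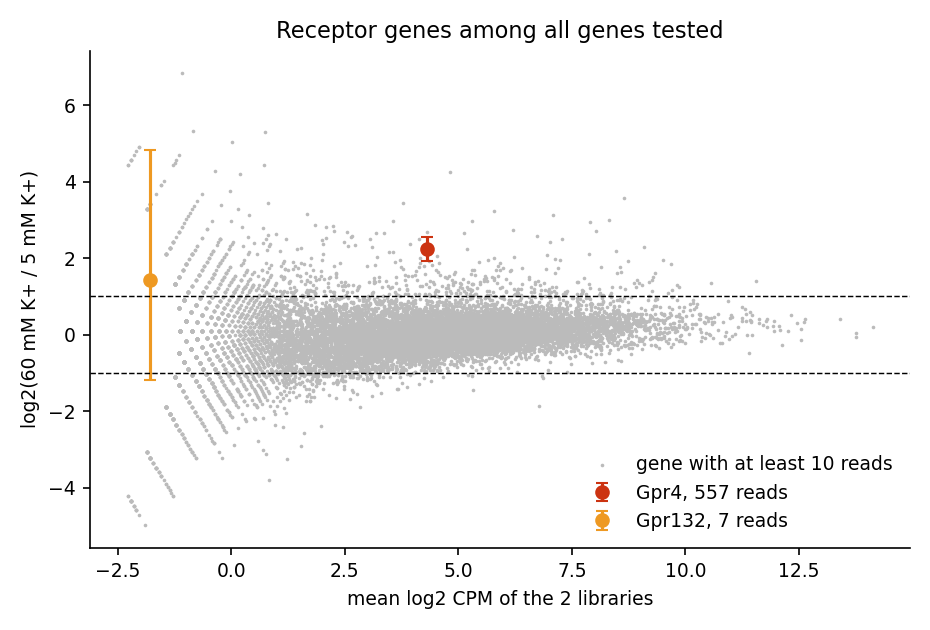
Log2(60 mM K+ / 5 mM K+) against mean log2 CPM for the genes with at least 10 reads (grey), with Gpr4 and Gpr132 and their 95% counting intervals; dashed lines mark 1 and -1. Gpr4 lies at 2.22, above nearly all genes of its level, whereas the interval of Gpr132, which has 7 reads, runs from -1.19 to 4.82.

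The cell types known for these receptors were followed by their marker genes. In bulk tissue, fewer cells of a type and less RNA per cell cannot be told apart. All 14 endothelial markers had at least 10 reads, and their summed level was 4041 CPM in 5 mM K+ and 5540 CPM in 60 mM K+, a ratio of 1.37. Their median log2(fold-change) was 0.34, compared with -0.0047 over all genes tested. With total-count scaling these medians were 0.14 and -0.21. Of the markers, 1 passed 1 and 1 passed -1, beside 5.54% and 5.86% of all genes tested. Nos3, the endothelial nitric oxide synthase, was the highest at 1.10 (1013 and 2025 reads; 0.89 with total-count scaling), and Kdr, a VEGF receptor, was the lowest at -1.10 (168 and 73 reads). Pecam1 and Vwf, defining markers of endothelium, were at 0.50 and 0.28, or 0.29 and 0.07 with total-count scaling. Gpr4 was above each of the 14 markers. Per 1000 reads on these markers, Gpr4 had 2.28 reads in 5 mM K+ and 7.79 in 60 mM K+. This was a 3.41-fold difference (2.75 to 4.26) against 4.67-fold with TMM scaling. Most of the marker reads were on Pecam1 and Vwf, with 19497 and 10480 of 45531 in 5 mM K+. Per 1000 reads on 10 smooth muscle markers, the difference of Gpr4 was 4.27-fold (3.44 to 5.34). The part of endothelial content in the difference of Gpr4 was not tested further. The smooth muscle markers that define the tissue, such as Acta2 with 187183 and 199779 reads, were abundant, and their median over 10 genes was 0.06, or -0.15 with total-count scaling.

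Macrophage markers were detected, whereas markers of lymphocytes, neutrophils and mast cells were sparse. The 14 macrophage markers together had 739 and 662 reads, 65.6 and 63.0 CPM, and their median was -0.06. Lyz2, a lysozyme of myeloid cells (160 and 87 reads), and C1qa, a complement subunit (119 and 112 reads), had the most reads in the control. None passed 1 and Itgam, an integrin of myeloid cells with 9 and 1 reads, passed -1, beside 5.54% and 5.86% of all genes tested. The 12 lymphocyte markers together had 26 and 15 reads. Cd3g and Cd2 were at 0 in both libraries, and only Ptprc, the pan-leukocyte marker CD45, reached 10 reads, with 12 and 2. The 10 markers of neutrophils and mast cells had 24 and 30 reads in all. S100a9, Retnlg and Ly6g, which mark neutrophils, were at 0 in both libraries.

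Gpr4 was then set beside other receptors. GENCODE gives 91 of the listed genes a name made of Gpr and a number, and 37 had at least 10 reads. Of these 37, 4 had a log2(fold-change) above 1 and 4 below -1, and the median was -0.0075. This is 10.8% in each direction, beside 5.54% and 5.86% of all genes tested. Gpr4 ranked 2 among the 37. Gpr56, an adhesion receptor now called Adgrg1, was next below it at 1.39 (1.21 to 1.58) with 344 and 843 reads, then Gpr183, a receptor for oxysterols on leukocytes, at 1.10 with 6 and 12 reads. Gpr146 was at 0.89 with 592 and 1025 reads. Among the lowest, Gpr97 was at -1.09 with 71 and 31 reads. By FPKM level, Gpr4 moved from rank 21 of the 37 in 5 mM K+ to rank 11 in 60 mM K+.

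**Figure D3:**
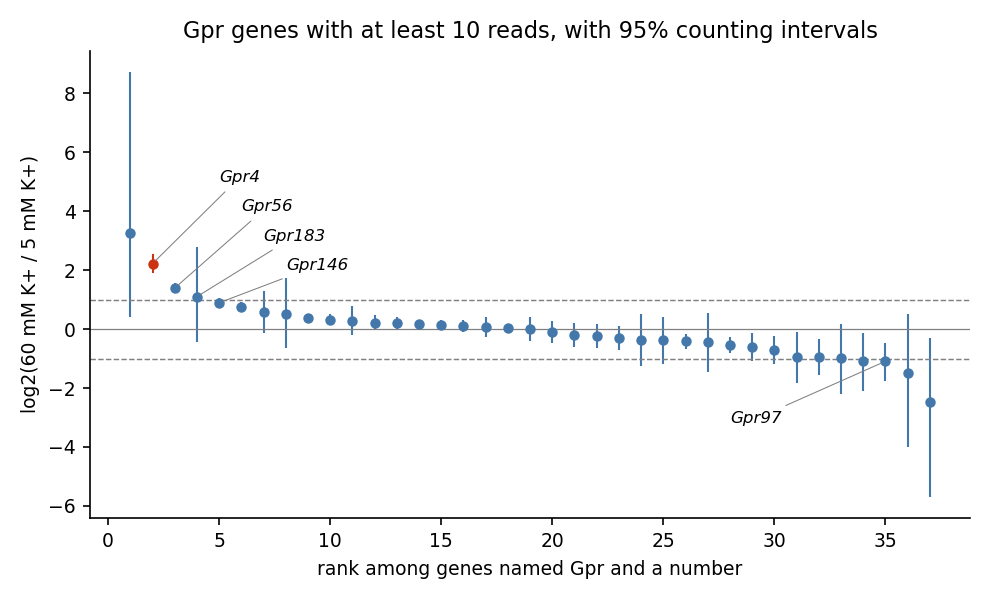
Log2(60 mM K+ / 5 mM K+) of the 37 genes named Gpr and a number with at least 10 reads, in rank order, with 95% counting intervals as bars; dashed lines mark 1 and -1. Gpr4 (red) is at rank 2 with an interval of 1.91 to 2.55, and Gpr56 follows at rank 3 with an interval of 1.21 to 1.58.

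Of 14 receptors known from endothelial cells, 13 had at least 10 reads. None passed 1 and only Gpr182, a chemokine-scavenging receptor with 32 and 14 reads, passed -1, and their median was 0.12, or -0.09 with total-count scaling. The sphingosine-1-phosphate receptor S1pr1 had 1191 and 1186 reads, a log2(fold-change) of 0.10. The thrombin receptor F2r was at 0.21, the endothelin receptor Ednrb at 0.17 and Adgrf5 at 0.39. By FPKM, 9 of the 14 were more abundant than Gpr4 in 5 mM K+ and 7 in 60 mM K+. Among 19 leukocyte receptors, 10 had at least 10 reads, 2 passed 1 and 2 passed -1, beside 5.54% and 5.86% of all genes tested. None of the 3 with at least 100 reads passed either limit. The chemokine receptor Ccr2, at 1.27 with 4 and 9 reads, and Gpr183, which was at 0.89 with total-count scaling, were the higher ones, both on few reads, and P2ry12 was the lowest at -3.36 with 11 and 1 reads.

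Receptors that share the Gs pathway with Gpr4 and Gpr65 were measured too. Of 27, 7 were at 0 in both libraries and 16 had at least 10 reads. Among these, 2 passed 1, namely Vipr1, a receptor for vasoactive intestinal peptide, at 1.06 (327 and 635 reads) and Ptgir, the prostacyclin receptor, at 1.04 (405 and 777 reads). With total-count scaling both were below 1, at 0.85 for Vipr1 and 0.83 for Ptgir. The dopamine receptor Drd1 (-1.11, 104 and 45 reads) and the receptor Glp2r (-2.22, 10 and 2 reads) passed -1. Over all genes tested, 5.54% were above 1 and 5.86% were below -1. The median of the 16 was -0.03, and none was above Gpr4. Ptger4, a prostaglandin E2 receptor, was at 0.75. The CGRP and adrenomedullin receptor Calcrl was at -0.14.

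**Figure D4:**
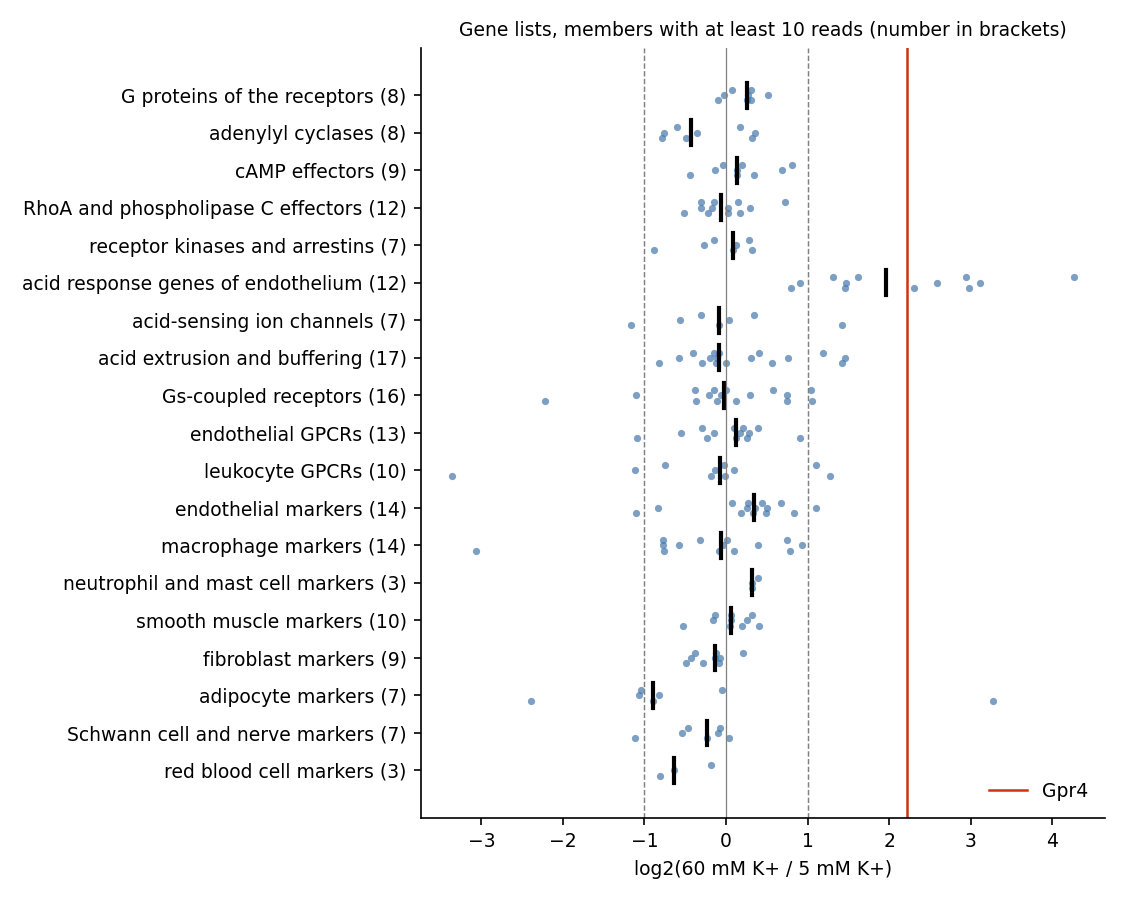
Log2(60 mM K+ / 5 mM K+) of the members of each gene list with at least 10 reads (points, their number in brackets), with the median of each list as a black bar, 1 and -1 as dashed lines and Gpr4 as the red line at 2.22. The list of acid response genes lies to the right with a median of 1.96, and the medians of the other plotted lists lie between -0.90 and 0.34. Lymphocyte markers are not plotted, as only Ptprc, at -2.48, had at least 10 reads.

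Downstream of the receptors, the signaling genes with at least 10 reads lay between -0.89 and 0.81. Over all genes tested, 5.54% passed 1 and 5.86% passed -1. At those shares, lists this short could hold none past either limit. Of 8 G protein alpha subunits, none passed 1 in either direction and the median was 0.26. Gnas, the Gs subunit, was at 0.52 (207 and 276 reads), and Gna13, which links receptors to RhoA, was at 0.26. Of 9 adenylyl cyclases, which make cAMP, 8 had at least 10 reads, none passed 1 in either direction and the median was -0.43. Adcy5 was the most abundant by FPKM (369 and 408) with a log2(fold-change) of 0.35, while Adcy3 was at -0.78, Adcy7 at -0.76 and Adcy9 at -0.60. Of 9 cAMP effectors, none passed 1 in either direction. The highest were the cAMP-activated exchange factors Rapgef4 at 0.81 (111 and 182 reads) and Rapgef3 at 0.69 (441 and 664 reads), and the protein kinase A subunit Prkaca was at 0.19. Of 13 RhoA and phospholipase C effectors, 12 had at least 10 reads, none passed 1 in either direction and the median was -0.06. Of 7 receptor kinases and arrestins, which switch receptors off, none passed 1 in either direction and the lowest was Grk4 at -0.89. With total-count scaling Grk4 passed -1.

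A list of 13 genes known to rise in endothelial cells when acid activates GPR4, including adhesion molecules, chemokines and NF-kB feedback genes, was examined next. Of these, 12 had at least 10 reads, all 12 were higher in 60 mM K+ and 10 passed 1, beside 5.54% of all genes tested, with a median of 1.96. The list overlaps with genes already known to change in these libraries and is not independent evidence. Ptgs2, the inducible cyclooxygenase, had 1465 and 3788 reads, a log2(fold-change) of 1.47. Relb, an NF-kB subunit, was at 1.46 (234 and 599 reads), and Nfkbia, the inhibitor of NF-kB, was at 1.62 (2312 and 6610 reads). The stress factor Ddit3 was at 1.31 (211 and 487 reads). Nfkbiz at 0.90 and Atf3 at 0.79 were the 2 that did not pass 1, and the chemokine Ccl20 was at 0 in both libraries. These genes respond to many other stimuli as well, and the part of GPR4 in their levels was not tested. With quantitative PCR, the study found comparable gene induction by depolarization in arteries whose endothelium had been removed. Its primer list includes neither Gpr4 nor the genes named in this paragraph, so that finding does not cover them. The study proposes that the induction it observed occurs mainly in vascular myocytes.

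Genes that sense acid or bear on pH were counted in 2 lists. Of 22 genes on a list named acid extrusion and buffering, 17 had at least 10 reads. Not all genes of this list extrude acid. Among the 17, 3 passed 1 and none passed -1, beside 5.54% and 5.86% of all genes tested, with a median of -0.09. The carbonic anhydrase Car3, at -0.82 with 581 and 306 reads, passed -1 with total-count scaling, at -1.03. Of the 3, a pair exports lactate together with protons. Slc16a3, the monocarboxylate transporter MCT4, was at 1.46 (1.33 to 1.59) with 638 and 1634 reads, and Slc16a1, or MCT1, was at 1.18 with 110 and 233 reads. With total-count scaling Slc16a1 was at 0.98. The third was the carbonic anhydrase Car13, with 8 and 20 reads. Bsg, the chaperone of these transporters, was at 0.40. The bicarbonate transporters Slc4a4, Slc4a7 and Slc4a2 were at -0.41, -0.19 and -0.15. Of 13 acid-sensing ion channels, 4 were at 0 in both libraries and 7 had at least 10 reads. Among the 7, 1 passed 1 and 1 passed -1, beside 5.54% and 5.86% of all genes tested. The channel gene Asic3 passed 1 on 4 and 10 reads, and Trpv1 passed -1 on 12 and 5 reads. Their log2(fold-change) intervals, -0.37 to 3.55 and -3.02 to 0.45, include no change. Neither of the 2 channels with at least 100 reads passed a limit. The proton-activated chloride channel Pacc1, the most abundant of them by FPKM, was at 0.35 (102 and 121 reads).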

How the data were processed

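RNA was extracted from mesenteric arteries, genomic DNA was digested, and poly-A libraries were sequenced commercially. By its methods, the study used TopHat2 for alignment to mm9. The authors deposited unnormalized counts of reads on genes and FPKM values, which were scaled by total counts: the ratio of counts to FPKM between the libraries was 0.928 for each of 14797 genes, equal to the ratio of the totals. The submitters' processing notes list TopHat2 2.0.12, HTSeq 0.6.1 and edgeR 3.0.8. The annotation is not given in the sources used here. Whether counting used strand is not stated.

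The members and gene lists were chosen with earlier results of these data known. Symbols came from GENCODE vM1 on mm9, which names 32601 of 55573 genes, with RefSeq synonyms for newer names, and 243 of 245 listed symbols matched. TMM factors from edgeR 4.0.16 in R 4.3.3 gave the fold changes, with a count of 0 set to 0.5. The study called genes by a threshold of 1 on the log2 scale together with a corrected q-value threshold of 0.005. Only the threshold of 1 was applied here, to genes whose reads summed to at least 10 over the libraries. The counts of genes past it are therefore not those the study reported. With 1 library per condition, edgeR's quasi-likelihood test could not be run. A floor of 3 reads was 0.266 CPM in the control and 0.286 CPM in the depolarized library. Alternatives were total-count, median-of-ratios (DESeq2 1.42.0) and upper-quartile scaling, other minimum counts, FPKM with pseudocounts, and calls by the random-sampling test of DEGSeq or edgeR's exact test with an assumed spread.

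Besides the members, the genes named are those of the 20 lists, with those past the threshold and the most abundant first, the 3 nearest to Gpr4, the 5 highest and 3 lowest genes named Gpr and a number, and genes within 5 kb of a member. Some genes that this rule covers are not reported here. Promoter windows are from RefSeq (GRCm38.p6) and were matched exactly to mm9; the motifs were chosen after the values were seen. Plots were made in matplotlib 3.10.9 under Python 3.11.15.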

Additional observations from a re-analysis of the deposited data

How the results depend on the processing

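No paired analysis was possible because there was a single library per condition. The log2(fold-change) of Gpr4 was between 1.98 and 2.21 under the other scalings and with FPKM and a pseudocount of 0.1, and it was 1.75 with FPKM and a pseudocount of 1, which compresses low values. The value of Gpr132 was 0.21 to 1.41 over the 5 alternatives, against 1.42, and with 7 reads its counting interval is too wide to show whether it is stable. No fold change of Gpr65 was computed under any setting because both counts are below the floor of 3 reads.

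The background moved more. Of 822 genes above 1 and 869 below -1, there were 3081 and 2491 with no minimum number of reads, 329 and 87 with at least 100 reads, and 263 and 73 with the threshold on the nearest end of the interval. There were 452 and 235 with the random-sampling test, 138 and 19 with edgeR's exact test and an assumed coefficient of variation of 0.2, and 240 and 193 with FPKM and a pseudocount of 1. Both tests compare 2 libraries and not the conditions. Filters, thresholds and the pseudocount act on low counts by construction. Total-count scaling gave 601 and 1285 genes. Among medians of the 20 gene lists, 4 changed sign with total-count scaling and 2 of 18 did with at least 100 reads. With no replicates, these settings show how far counting and scaling move the values and not how far animals differ.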

Other observations

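Markers of other cell types in the vessel wall and around it were counted in the same way. Over all genes tested, 5.54% passed 1 and 5.86% passed -1. The 9 fibroblast markers had a median log2(fold-change) of -0.13, with Dcn, a matrix proteoglycan, at -0.07 and Col3a1, a collagen chain, at -0.49, and none passed 1 in either direction. Of 8 adipocyte markers, 7 had at least 10 reads, and their summed level was 184 CPM in 5 mM K+ and 133 CPM in 60 mM K+. Among the 7, 1 passed 1 and 3 passed -1, or 5 with total-count scaling. Fabp4, the marker with the most reads (1060 and 951), was at -0.06. Plin1, which coats lipid droplets, was at -2.39 (101 and 18 reads), Cfd at -1.07 (607 and 270 reads) and Adipoq, which encodes adiponectin, at -1.04 (97 and 44 reads), while Lep, the gene of leptin, was at 3.27 on 1 and 9 reads. Of the 8 Schwann cell and nerve markers, 7 had at least 10 reads, and only Dbh, with 7 and 3 reads, passed -1. The 4 matched red blood cell markers had 442 and 254 reads in all.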
